A study of Drosophila melanogaster with 27 samples.

Results

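Chromatin of the early *Drosophila* embryo is assembled on histones supplied by the mother, and 6 genes of this supply were followed here through all 9 groups of embryos: *BigH1*, *His2Av*, *His3.3A*, *His3.3B*, *His4r* and *Slbp*. They were chosen by symbol and matched by identifier to 6 of the 17714 genes in the deposited tables. As background, most histones are made from repeated genes whose mRNAs are produced in S phase and end in a stem-loop instead of a poly(A) tail. Replacement variants are made from single genes with polyadenylated mRNAs, and can be placed into chromatin outside replication. In the cleavage-stage embryo the linker position is held by the embryonic linker histone, which the somatic linker histone H1 replaces as the zygotic genome is activated.

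*BigH1* (FBgn0038252) encodes that embryonic linker histone and lies on chromosome arm 3R, positions 14663450 to 14664822, on the plus strand. *His2Av* (FBgn0001197; 3R, 26866929 to 26869220, plus strand) encodes H2A.V, the only H2A variant of the fly, which serves as both H2A.Z and H2A.X. *His3.3A* (FBgn0014857; 2L, 5055058 to 5056149, plus strand) and *His3.3B* (FBgn0004828; X, 9152523 to 9156669, minus strand) encode the same H3.3 protein. *His4r* (FBgn0013981; 3R, 14625755 to 14626614, plus strand) encodes replacement H4, the same protein as the H4 of the repeated genes. *Slbp* (FBgn0041186; 3R, 29152074 to 29153266, minus strand) is no histone but encodes the stem-loop binding protein, which binds the end of replication-dependent histone mRNAs and is needed for their processing and translation. Coordinates are those of the Ensembl annotation of BDGP6.54. On the opposite strand, *Nepl3* overlaps *His3.3A* by 168 bases, and whether the counting used strand is not given in the sources used here.

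The study asked which maternal mRNAs the repressor Nanos (Nos), which binds RNA together with Pumilio, can act on. Embryos were hand-sorted at nuclear cycle 9 (as labelled; the methods extend this to the next cycle) after fixation in methanol and staining of DNA, in 5 genotypes with 3 libraries each: wild type (w, the *w1118* strain), and embryos of mothers expressing Upf1, Nos, Upf1-Nos or Upf1-NosL7 from a UAS transgene under the maternal alpha-tubulin GAL4-VP16 driver. Upf1 is a helicase that triggers mRNA decay, Upf1-Nos is a chimera that brings it to mRNAs bound by Nos, and Upf1-NosL7 lacks the C-terminal tail through which Nos is recruited. Each transgene ended in the native *nos* 3′ UTR, and Upf1-Nos embryos, whose nuclei were often abnormal, were sorted as being of about the same age. A second experiment compared wild type with nos- embryos, from mothers carrying *nos*BN over the deficiency Df(3R)Exel6183, in unsorted collections of 0 to 1 h and 2 to 3 h, again with 3 libraries each. All 27 libraries were made from poly(A)-selected RNA of whole embryos. Each transgenic genotype was represented by a line chosen among several, and nothing in the labels says that the 3 libraries of a group came from separate collections, so p-values measure the spread between these libraries.

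Expected counts, which RSEM estimates when reads fit more than 1 transcript, summed to between 14022879 and 22002028 per library in sorted and between 15253031 and 21661085 in timed embryos. *nos* itself lay at 381 to 409 TPM (the scale of RSEM that corrects for transcript length and library depth) in wild type and 0.12 to 0.43 TPM in nos- at 0 to 1 h, and at 31.0 to 42.0 and 0.87 to 1.28 TPM at 2 to 3 h, so these libraries match their labels. *Upf1* lay at 7.05 to 15.3 TPM in sorted wild type and 88.7 to 200.3 TPM in Upf1 embryos, but at 4.59 to 14.1 TPM in both chimeras, so its level checks no chimera label. *nos* lay at 158 to 199 TPM in sorted wild type, 198 to 204 TPM in Nos embryos, 31.7 to 36.4 TPM in Upf1-Nos and 108 to 141 TPM in Upf1-NosL7, so that it did not check the Nos label or those of the chimeras, and these groups rest on their labels. In the sorted embryos the summed level of 8 first zygotic genes (*Kr*, *gt*, *kni*, *ftz*, *eve*, *sna*, *twi* and *zen*) was 2.79 to 17.4 TPM, and 4 markers of older embryos summed to at most 0.43 TPM. The same older markers, mostly *Act57B*, reached 7.88 to 136 TPM in the timed collections of 0 to 1 h and 54.3 to 152 TPM in those of 2 to 3 h. Chorion and follicle cell genes summed to at most 3.75 TPM in any library. The 3 genes listed for adult tissue (*Fas3*, *Lsp2* and *ninaE*) summed to 0.35 to 3.3 TPM in timed wild type and 2.88 to 21.2 TPM in nos-. This sum was nearly all *Fas3*, since *Lsp2* reached at most 0.05 and *ninaE* at most 0.06 TPM in any timed library. It therefore shows a difference in *Fas3* and does not show adult tissue in the collections. The part of these genes in the results was not tested.

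The members were among the abundant mRNAs of the sorted wild-type embryo. On the TPM scale, which is per length and so allows genes to be compared, *His4r* (1989 ± 257 TPM, SD, n = 3) and *His2Av* (1840.4 ± 152 TPM) were highest and their libraries overlapped. *His3.3B* (1112 ± 22.5 TPM) and *BigH1* (960.3 ± 63.1 TPM) followed, then *His3.3A* (474 ± 63.8 TPM) and *Slbp* (332 ± 24.7 TPM). Behind these levels stood between 267 (*Slbp*, in an Upf1-Nos library) and 34370 (*His2Av*) expected counts per library. By comparison, 111 genes of the histone repeat summed to 39.3 to 175 TPM over all groups, while the 4 replacement genes summed to 4262 to 7572 TPM. Since the RNA was selected for poly(A), which the mRNAs of the repeat genes normally lack, this difference is no measure of the histone mRNA present. How many reads *His3.3A* shares with *His3.3B*, or *His4r* with the repeat H4 genes, was not tested.

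*BigH1* was depleted in Upf1-Nos embryos. Its level in the 3 wild-type libraries was 892, 971 and 1017 TPM, and in the Upf1-Nos libraries 418, 422 and 432 TPM. In embryos with Upf1 alone it was 844, 844 and 767 TPM, with Nos 802, 793 and 747 TPM, and with Upf1-NosL7 899, 810.1 and 946 TPM. The 3 Upf1-Nos libraries thus lay close together and below all 12 others, while each of the 4 other groups overlapped its neighbour in the order of levels, wild type, Upf1-NosL7, Upf1 and Nos. In the fit, which scales Upf1-Nos libraries by the authors' correction for 20 abundant housekeeping genes, *BigH1* changed by −1.50 ± 0.0948 (SE) on the log2 scale, 2.83-fold lower than wild type (adjusted p = 1.42e-09, edgeR's quasi-likelihood test, Benjamini-Hochberg). Against Upf1-NosL7 the change was −1.52 ± 0.0949 (SE) (adjusted p = 1.39e-09), a comparison that uses the same Upf1-Nos libraries. Without the correction the value was −0.92 against wild type and −0.94 against Upf1-NosL7, still past the p threshold but short of the 2-fold change asked for. These are bulk samples, in which fewer cells or embryos carrying an mRNA and less of it in each cannot be told apart.

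*Slbp* fell furthest of the members in Upf1-Nos embryos. Wild-type libraries held 318, 360.3 and 317 TPM, and Upf1-Nos libraries 26.6, 18.8 and 26.01 TPM. The level was 266, 264 and 246 TPM with Upf1, 339, 324 and 335 TPM with Nos and 250.3, 253 and 270.3 TPM with Upf1-NosL7. No library of another genotype came near the Upf1-Nos libraries; Upf1 and Upf1-NosL7 libraries also lay below all of wild type and Nos, by a smaller step. Fitted, *Slbp* changed by −4.13 ± 0.157 (SE) on the log2 scale against wild type, 17.5-fold lower (adjusted p = 9.72e-12, edgeR's quasi-likelihood test, Benjamini-Hochberg), and by −3.89 ± 0.155 (SE) against Upf1-NosL7 (adjusted p = 2.10e-11). Leaving out the correction moved it to −3.57, and it was called in all 13 settings. With Upf1 alone the change was −0.38 (adjusted p = 0.0924) and with Upf1-NosL7 −0.23 (adjusted p = 0.238), neither past the threshold.

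In all, 2 of the 6 members were called lower in Upf1-Nos embryos and none higher, where calls needed both an adjusted p under 0.05 and a change of more than 2-fold. Of all 6857 genes tested, 39.7% were called lower against wild type, and 37.8% against Upf1-NosL7, for which the same 2 members were called. The share of the members is thus near that of all genes, and what sets *Slbp* apart within the 6 is the size of its change. Over all genes the median change was −0.51, so that *BigH1* lay −0.99 and *Slbp* −3.61 from it. Without the correction factor the median was 0.05 and the calls over all genes went from 2725 lower and 150 higher to 2183 and 739, and with a factor from ribosomal protein genes to 2534 and 245. The summed level of 4 maternal markers (*bcd*, *osk*, *gcl* and *pgc*) was 1711 to 1879.7 TPM in wild type and 178 to 227 TPM in Upf1-Nos, and that of the first zygotic genes 2.79 to 6.21 and 5.32 to 6.25 TPM; their part in the changes of the members was not tested.

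None of the 4 replacement histones was called in Upf1-Nos embryos. For *His2Av* the wild-type libraries held 1819, 1700.5 and 2002 TPM and the Upf1-Nos libraries 2625, 2617 and 2419 TPM. For *His3.3B* the values were 1124, 1127 and 1086 TPM in wild type and 1621, 1614 and 1497 TPM in Upf1-Nos. Both genes therefore took a larger share of the mRNA pool in every Upf1-Nos library than in any other sorted library, with Nos embryos next. *His4r* held 1909.8, 2276 and 1781 TPM in wild type and 2242, 2532 and 2324 TPM in Upf1-Nos, and *His3.3A* 502, 518 and 401 and 478, 519 and 495 TPM, groups that overlap in both genes. With Upf1, Nos and Upf1-NosL7 the ranges were 1871 to 2069, 2226 to 2273 and 1869 to 2127 TPM for *His2Av*, 1095 to 1225, 1286 to 1301 and 1137 to 1203 TPM for *His3.3B*, 1679 to 2033, 1755 to 1783 and 1717 to 2055 TPM for *His4r*, and 426 to 472, 530.5 to 557 and 452 to 539 TPM for *His3.3A*. *His3.3A* was thus highest in Nos, without overlap with Upf1-Nos. After the correction, fitted log2 changes were 0.16 for *His2Av* (adjusted p = 0.134, edgeR's quasi-likelihood test, Benjamini-Hochberg), 0.18 for *His3.3B* (adjusted p = 0.110), −0.07 for *His4r* (adjusted p = 0.687) and −0.25 for *His3.3A* (adjusted p = 0.149). All 4 lay above the median of all genes, by 0.67, 0.69, 0.44 and 0.26. Over 13 settings *His2Av* ranged from 0.14 to 0.74 and *His3.3B* from 0.16 to 0.76, above wild type in each. The sign depended on the setting for *His4r* (−0.10 to 0.51) and *His3.3A* (−0.28 to 0.33). None of the 4 was called in any setting. Against Upf1-NosL7, *His3.3A* changed by −0.44 (adjusted p = 0.0176), 1.35-fold lower and short of the fold asked for. In the same comparison *His2Av* changed by −0.12, *His3.3B* by −0.02 and *His4r* by −0.14, and none was called. There the sign depended on the setting for *His2Av* (−0.19 to 0.46), *His3.3B* (−0.10 to 0.56) and *His4r* (−0.21 to 0.45).

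The 2 genes for H3.3 can be compared within a library, where no scaling factor enters. *His3.3A* gave 30.9, 31.5 and 26.9% of the H3.3 TPM in the wild-type libraries and 22.8, 24.3 and 24.8% in those of Upf1-Nos, which lay below every other sorted library. In the Upf1, Nos and Upf1-NosL7 libraries the share was 27.6 to 31.7%. The difference between Upf1-Nos and wild type gave p = 0.1 in a 2-sided exact permutation test, the smallest p that 3 libraries against 3 allow, and 0.225 after adjustment over the 9 comparisons made, so it could not pass the threshold.

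**Figure D1:**
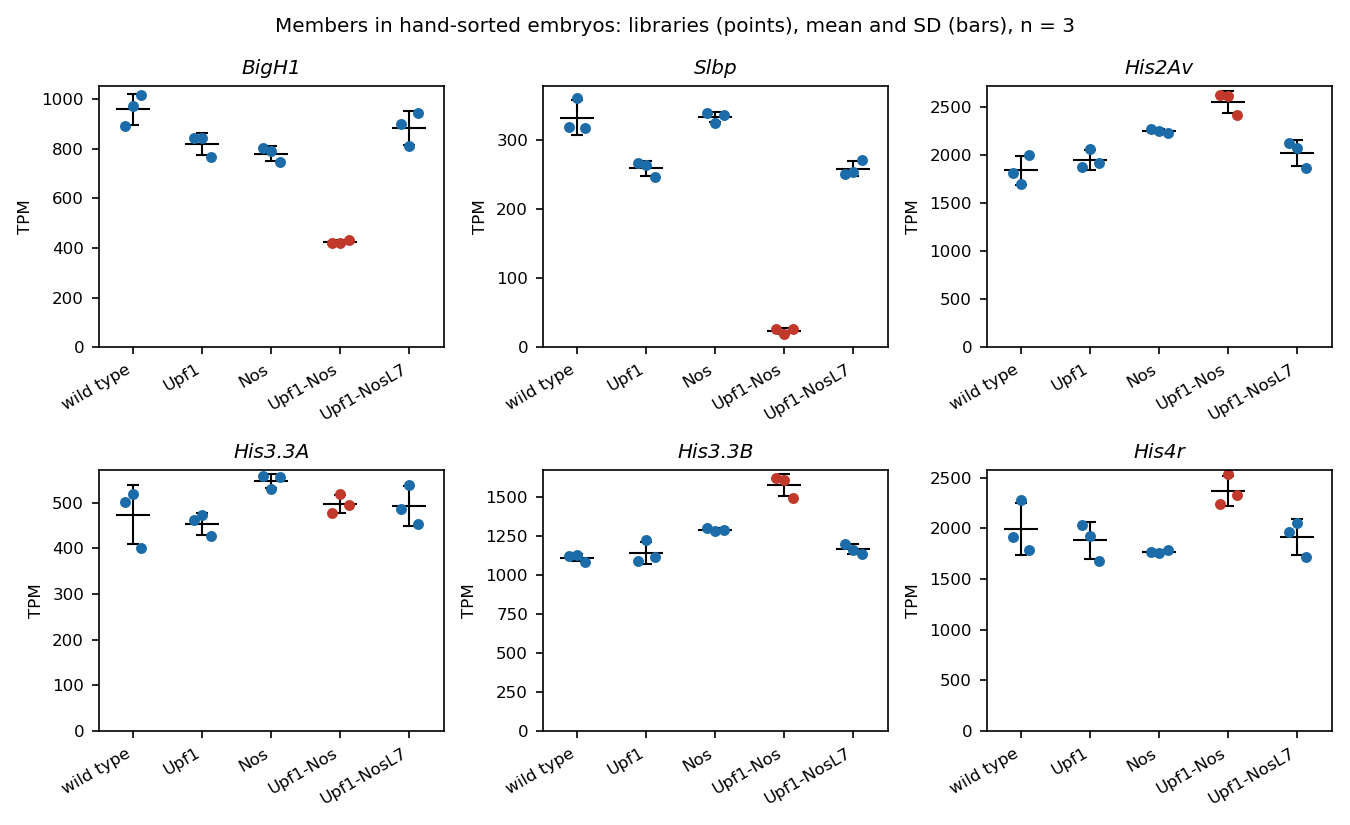
TPM of the 6 members in hand-sorted embryos, with each library as a point and bars for the mean and SD of 3 libraries; Upf1-Nos libraries are red. In Upf1-Nos, *BigH1* lies at 418 to 432 TPM and *Slbp* at 18.8 to 26.6 TPM, below all other libraries, while *His2Av* and *His3.3B* lie above all others.

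No member was called in the groups labelled Upf1, Nos and Upf1-NosL7. The number called was 0 of 6 with Upf1, Nos and Upf1-NosL7 against wild type in edgeR's quasi-likelihood test, Benjamini-Hochberg, with 0, 1 and 0 members at an adjusted p below 0.05 when no fold was asked for and 2, 2 and 1 at an unadjusted p below 0.05. DESeq2 and limma also called 0 in each. Over all genes 4.03%, 5.60% and 5.19% were called in these comparisons. The member behind the 1 was *BigH1* in Nos embryos, where all 3 libraries lay below wild type and the log2 change was −0.35 ± 0.0928 (SE) (adjusted p = 0.0180), 1.27-fold lower. With Upf1-NosL7 the nearest to the threshold was *His2Av*, at 0.28 (adjusted p = 0.0526).

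In the timed collections *BigH1* declined between 0 to 1 h and 2 to 3 h, and declined less in nos- embryos. At 0 to 1 h it held 656, 699.7 and 700.2 TPM in wild type and 618, 683 and 638 TPM in nos-. The later collections held 219.8, 167 and 127 TPM in wild type and 403, 348 and 293 TPM in nos-. The genotypes overlapped early and were separated late, where every nos- library lay above every wild-type library. On the log2 scale of the fit *BigH1* differed by 0.89 ± 0.15 (SE) between nos- and wild type at 2 to 3 h, 1.85-fold higher (adjusted p = 8.37e-04, edgeR's quasi-likelihood test, Benjamini-Hochberg), and by 0.08 at 0 to 1 h (adjusted p = 0.751). From the earlier to the later collection it changed by −1.60 ± 0.152 (SE) in wild type (adjusted p = 1.29e-06) and by −0.80 ± 0.149 (SE) in nos- (adjusted p = 5.66e-04). The difference between the 2 stages in the effect of nos- was itself tested and was 0.81 ± 0.21 (SE) (adjusted p = 0.0138). It was called in all 10 settings in which it could be fitted, from 0.81 to 1.13, and with each of the 12 libraries left out in turn. In the fit of all isoforms, however, the only annotated isoform, BigH1-RA, kept this call in 3 of these 12 cases.

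Maternal and first zygotic marker genes moved with this result. At 2 to 3 h the 4 maternal markers summed to 249, 178 and 135 TPM in wild-type libraries 1 to 3 and 405, 348 and 264 TPM in nos- libraries 1 to 3, the same order of libraries as for *BigH1* within each genotype. The 8 first zygotic genes summed to 663, 712 and 742 TPM in wild type and 396, 453 and 549.7 TPM in nos-, so all nos- libraries lay below all wild-type libraries. At 0 to 1 h the zygotic sum was 43.0 to 46.3 TPM in wild type and 46.9, 96.6 and 102 TPM in nos-. The difference at 2 to 3 h was uneven among the zygotic genes. *kni* had means of 76.2 TPM in wild type and 27.1 TPM in nos-, and *gt* 85.0 and 40.8 TPM. *Kr* had 78.0 and 70.8 TPM. Means were 95.9 and 69.5 TPM for *sna*, 107.5 and 72.5 TPM for *twi*, and 107 and 65.3 TPM for *zen*. They were 78.3 and 63.4 TPM for *ftz* and 77.6 and 56.9 TPM for *eve*. Libraries of the genotypes did not overlap for *kni*, *gt*, *sna*, *twi* and *zen*, and overlapped for *Kr*, *ftz* and *eve*. The maternal markers also summed lower in Upf1-Nos embryos. Whether these sums follow age or genotype was not tested, nor was their part in the *BigH1* result.

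The replacement histones went the other way with time. In wild type *His2Av* was at 1771, 1742 and 1593 TPM at 0 to 1 h and 2589, 2681 and 2809 TPM at 2 to 3 h, and *His3.3B* at 887, 894 and 912 and 1346, 1422 and 1465 TPM. *His3.3A* was at 383, 385 and 338 and then 652, 647 and 742 TPM, and *His4r* at 1322, 1503 and 1518 and then 1973, 2170.5 and 2555 TPM. In all 4 genes the later libraries lay above the earlier ones without overlap. The fitted log2 changes were 1.07 ± 0.0784 (SE) for *His2Av*, 1.30 ± 0.105 (SE) for *His3.3A*, 1.10 ± 0.0783 (SE) for *His3.3B* and 1.02 ± 0.143 (SE) for *His4r* (adjusted p between 1.38e-07 and 3.64e-05, edgeR's quasi-likelihood test, Benjamini-Hochberg), and all 4 were called in all 11 settings. The median of all genes was 0.25 in this fit but −0.18 on the log2(TPM + 1) scale. Relative to the fitted median the 4 genes rose by 0.78 to 1.05. In nos- the rises were 0.54, 0.73, 0.64 and 0.57 in the same order of genes (adjusted p between 2.17e-05 and 0.00399), all called. *His3.3A* and *His3.3B* were called in all 11 settings, but *His2Av* in 6 (0.44 to 0.61) and *His4r* in 7 (0.46 to 0.63). Both of these calls, near the limit of 0.5, were also lost without nos- library 3 of 0 to 1 h (0.495 and 0.48), and that of *His4r* also without nos- library 2 of 2 to 3 h (0.49).

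With *BigH1*, 4 members were thus called higher and 1 lower between the stages in wild type, and with *Slbp* 4 higher and 2 lower in nos-. Calls here ask for an adjusted p below 0.05 and a log2 change beyond 0.5. Over all 8445 genes tested, 34.1% were called higher and 33.0% lower in wild type, against 18.4% and 30.2% in nos-.

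**Figure D2:**
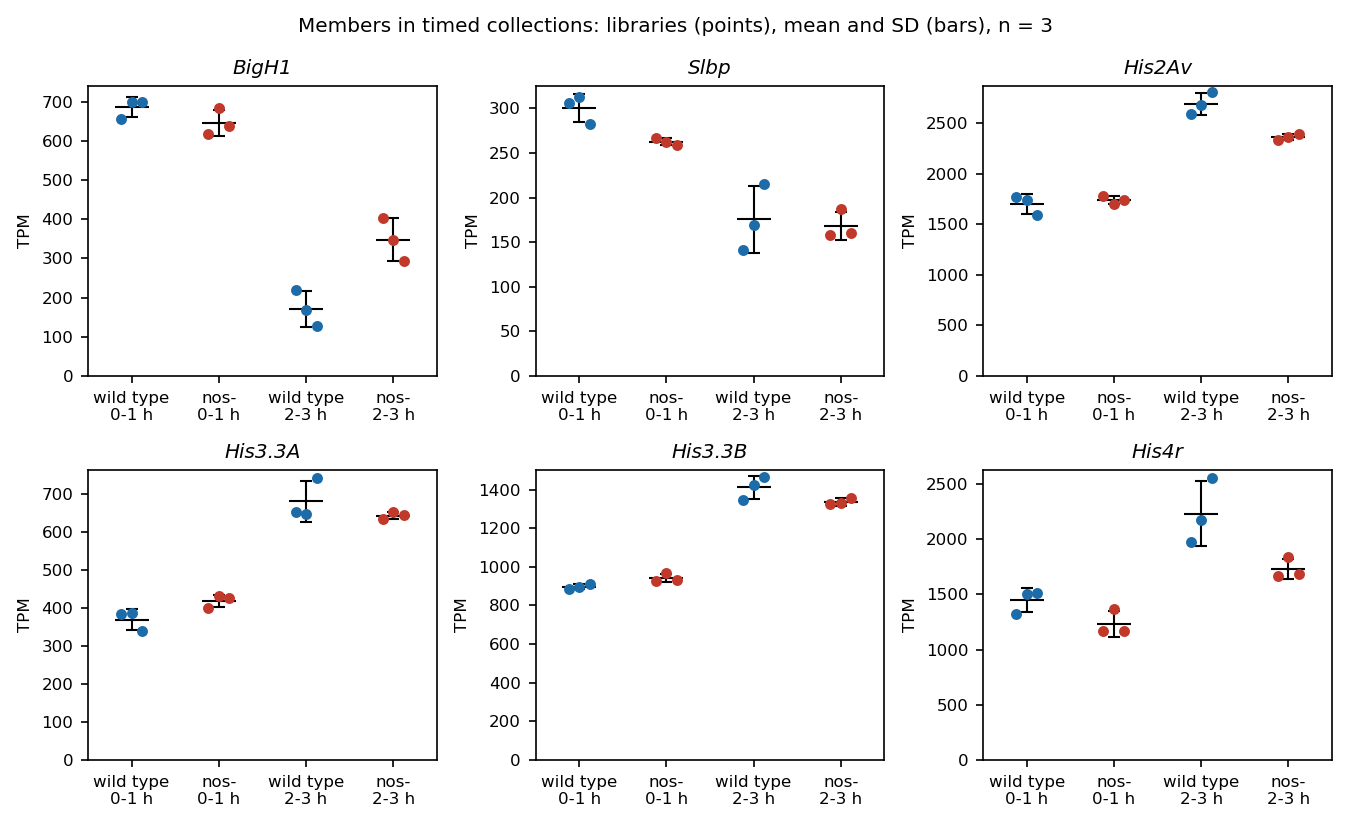
TPM of the 6 members in timed collections, with each library as a point, wild type blue and nos- red, and bars for the mean and SD of 3 libraries. At 2 to 3 h *BigH1* lies at 127 to 219.8 TPM in wild type and 293 to 403 TPM in nos-, and the 4 replacement histones are higher at 2 to 3 h than at 0 to 1 h in both genotypes.

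At 2 to 3 h the replacement histones had lower mean levels in nos- than in wild type, unlike *BigH1*. In nos- *His4r* held 1665, 1836 and 1687 TPM and *His2Av* 2336, 2364 and 2395 TPM, and no nos- library reached the lowest wild-type library in either gene. *His3.3A* (632, 651 and 643 TPM) and *His3.3B* (1323, 1328 and 1358 TPM) overlapped wild type. Only *His4r* was called among these 4, at −0.51 ± 0.142 (SE) (adjusted p = 0.0138, edgeR's quasi-likelihood test, Benjamini-Hochberg), and *His2Av*, at −0.34 ± 0.0776 (SE) (adjusted p = 0.00518), fell short of the limit of 0.5. With *BigH1* higher and *His4r* lower, 2 of the 6 members were called, where 18.6% of all genes were called higher and 8.80% lower. The *His4r* call was lost without wild-type library 2 (−0.49, adjusted p = 0.0562), without wild-type library 3 (−0.29, 0.120), without nos- library 1 (−0.42, 0.102) and without nos- library 3 (−0.48, 0.0401), and it stood in 3 of 11 settings. *BigH1* was called in all 11 settings and whichever library was left out.

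At 0 to 1 h no member was called between nos- and wild type (edgeR's quasi-likelihood test, Benjamini-Hochberg), nor by DESeq2 or limma, with 3 at an unadjusted p below 0.05, while 17.7% of all genes were. The largest difference was that of *His3.3A*, at 383, 385 and 338 TPM in wild type and 399, 430.2 and 424 TPM in nos-, groups that did not overlap. *His3.3B* held 926, 966 and 934 TPM in nos-, also above all of wild type. *His2Av* (1778, 1698 and 1738 TPM in nos-) and *His4r* (1168, 1371 and 1165 TPM) overlapped wild type. The log2 change of *His3.3A* was 0.35 ± 0.104 (SE) (adjusted p = 0.0276) and that of *His3.3B* 0.25 ± 0.0775 (SE) (adjusted p = 0.0347), both past the p threshold and short of 0.5.

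Tested as a difference between the stages, the effect of nos- was lower at 2 to 3 h for *His2Av* (−0.53 ± 0.11 (SE), adjusted p = 0.00560, edgeR's quasi-likelihood test, Benjamini-Hochberg) and *His3.3A* (−0.57 ± 0.147 (SE), adjusted p = 0.0135). With *BigH1* higher, 3 of the 6 members were called, beside 12.4% of all genes called higher and 10.1% lower. *His3.3B* (−0.45, adjusted p = 0.00998) fell short of the limit of 0.5, and *His4r* (−0.45, adjusted p = 0.103) and *Slbp* (−0.19, adjusted p = 0.560) missed the p threshold. The calls of *His2Av* and *His3.3A* held in 5 of 10 settings each. Both were lost with scaling by medians of ratios, which moved the median of all genes from −0.10 to 0.04 and the calls over all genes from 853 lower and 1050 higher to 486 and 1338. Both were also lost without wild-type library 2 (−0.40 and −0.47), wild-type library 3 (−0.30 and −0.29) or nos- library 1 of 2 to 3 h (−0.36 and −0.40), and that of *His2Av* without wild-type library 3 of 0 to 1 h (−0.47). In the wild-type collection of 2 to 3 h, the library with the highest zygotic sum was also the highest in all 4 replacement genes; its part in these differences was not tested beyond leaving it out.

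*Slbp*, which fell so far in Upf1-Nos, did not separate nos- from wild type at 2 to 3 h. It held 306, 313 and 282 TPM in wild type and 266, 262 and 259 TPM in nos- at 0 to 1 h. By 2 to 3 h it held 142, 169.6 and 216 TPM in wild type, the widest spread of any group, and 158, 187 and 160.1 TPM in nos-. The early libraries thus lay above the late ones in both genotypes, nos- lay below wild type in the early libraries on the TPM scale, and the late genotypes overlapped. Fitted, the nos- difference was −0.03 ± 0.163 (SE) at 0 to 1 h (adjusted p = 0.927, edgeR's quasi-likelihood test, Benjamini-Hochberg; −0.19 to −0.02 over 11 settings, called in 0) and −0.22 ± 0.163 (SE) at 2 to 3 h (adjusted p = 0.291), the latter moving to 0.07 without wild-type library 3. Between the stages *Slbp* changed by −0.54 ± 0.164 (SE) in nos- (adjusted p = 0.0117) and by −0.35 ± 0.163 (SE) in wild type (adjusted p = 0.0683), called only in nos-. The nos- call was lost without nos- library 1 of 2 to 3 h (−0.47), and the wild-type change was called without wild-type library 3 of 2 to 3 h (−0.73) and on the log2(TPM + 1) scale (−0.79). The 2 stage changes were not shown to differ.

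**Figure D3:**
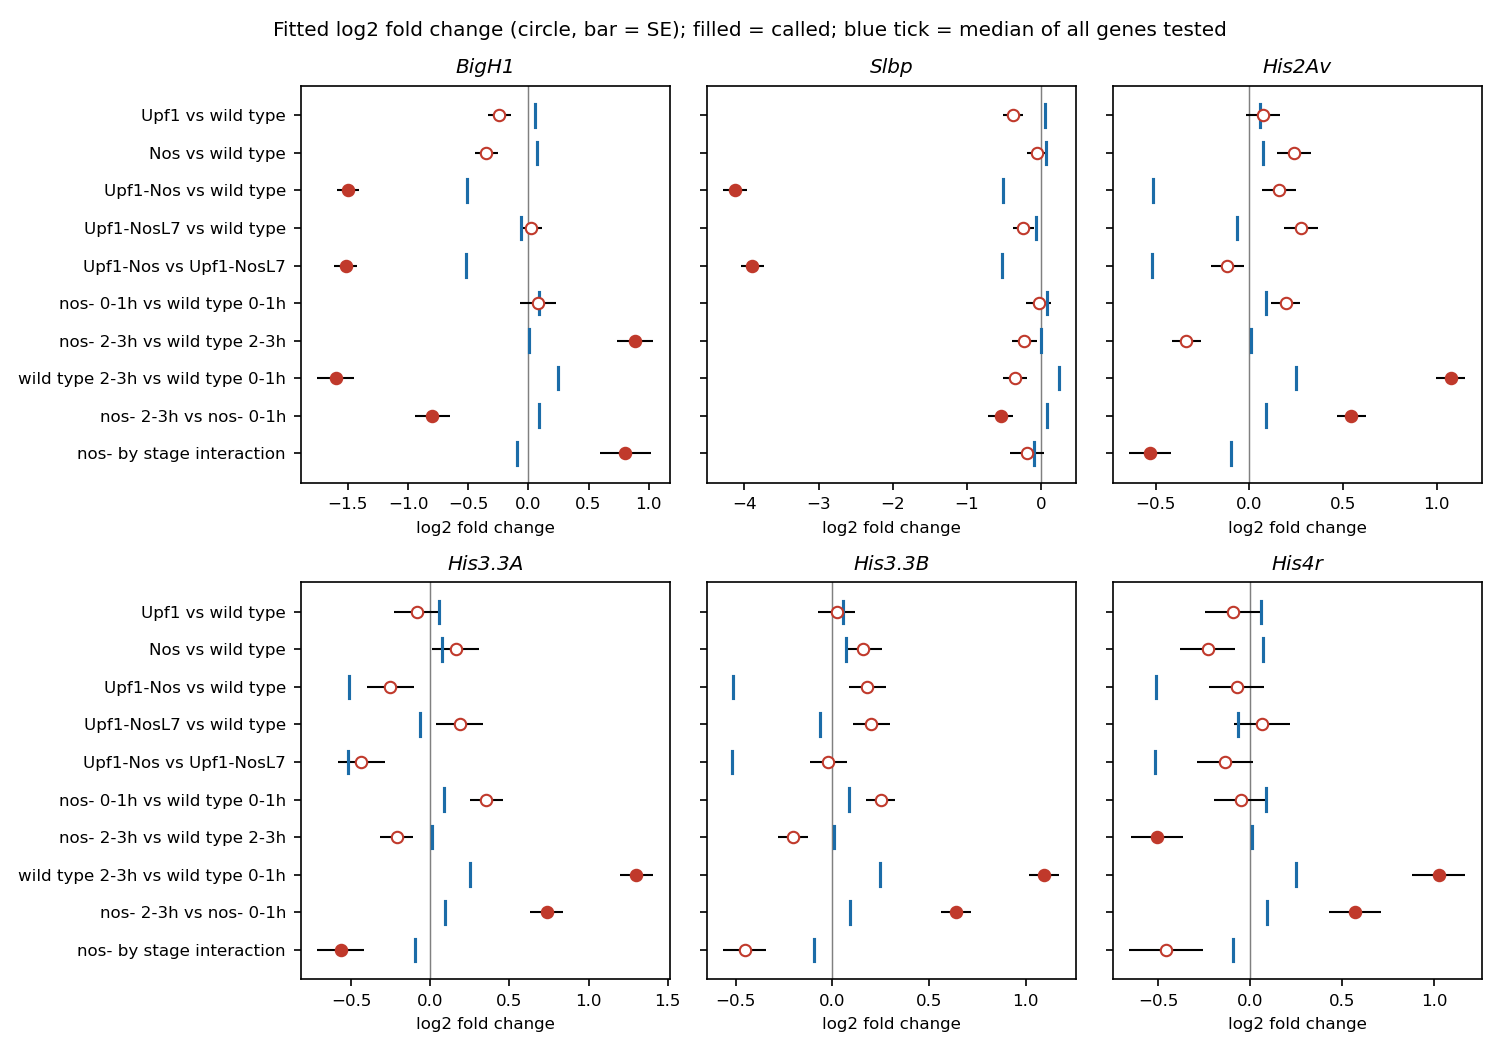
Fitted log2 changes of the 6 members in 9 comparisons and in the interaction, circles with bars of 1 SE, filled where called, and blue ticks for the median of all genes tested; the scale differs between panels. *BigH1* (−1.50) and *Slbp* (−4.13) lie below the median in Upf1-Nos, and *BigH1* (0.89) lies above it in nos- at 2 to 3 h.

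*BigH1* and *Slbp* have 1 annotated isoform each (BigH1-RA and Slbp-RA), so their changes are those of a single mRNA. The other members have 2 to 4 isoforms that encode the same protein. A single isoform dominated *His2Av* (His2Av-RA, 96.7 to 98.3% of the TPM of the gene over all libraries), *His3.3B* (His3.3B-RA, 89.2 to 97.3%) and *His3.3A* (His3.3A-RD, 75.1 to 92.7%), while *His4r* was divided between His4r-RA and His4r-RD. Among sorted embryos the rarer His3.3A-RC, whose 3′ UTR is 390 nucleotides long where that of His3.3A-RD is 236, had its highest mean share in Nos embryos. It made up 5.56, 4.99 and 4.94% of *His3.3A* in wild type and 8.04, 10.4 and 9.83% with Nos, without overlap. The fitted change was 0.93 ± 0.232 (SE) on the log2 scale (adjusted p = 0.0244, edgeR's quasi-likelihood test, Benjamini-Hochberg over all isoforms), past the p threshold and short of 2-fold.

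The makeup of *His4r* differed between nos- and wild type at both stages. His4r-RD, with a 5′ UTR of 52 and a 3′ UTR of 189 nucleotides, made up 48.5, 48.3 and 45.4% of the gene in wild type at 0 to 1 h and 24.9, 31.98 and 30.4% in nos-. Later it made up 53.5, 52.7 and 53.0% in wild type and 43.9, 41.7 and 39.5% in nos-. Its counterpart His4r-RA, with a 5′ UTR of 85 and a 3′ UTR of 179 nucleotides, took up most of the rest, so that it was the main isoform in every nos- library. In the fit His4r-RD was lower in nos-, at −0.79 ± 0.18 (SE) on the log2 scale at 0 to 1 h (adjusted p = 0.0173, edgeR's quasi-likelihood test, Benjamini-Hochberg over all isoforms) and −0.86 ± 0.179 (SE) at 2 to 3 h (adjusted p = 0.00681). The call at 0 to 1 h was lost without wild-type library 2 (−0.72, adjusted p = 0.0596), nos- library 1 (−0.64, adjusted p = 0.0529) or nos- library 3 (−0.73, adjusted p = 0.0587), and that at 2 to 3 h was kept whichever library was left out. His4r-RA was not called, at 0.38 (adjusted p = 0.127) and −0.17 (adjusted p = 0.485). The effect on His4r-RD did not differ between the stages beyond its error (−0.08 ± 0.252 (SE)). In sorted embryos the share of His4r-RD was 41.8 to 54.4%.

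The isoform of *His3.3B* with the longest 3′ UTR, His3.3B-RE (1589 nucleotides, against 874 in the 3 others), was a small but growing part of the gene. Its share at 0 to 1 h was 2.43, 3.01 and 4.11% in wild type and 3.51, 5.26 and 5.93% in nos-. At 2 to 3 h the share was 5.36, 6.67 and 6.53% in wild type and 9.07, 10.2 and 9.33% in nos-, higher in every nos- library than in any of wild type. At 0 to 1 h His3.3B-RE was called higher in nos-, by 0.83 ± 0.245 (SE) (adjusted p = 0.0470, edgeR's quasi-likelihood test, Benjamini-Hochberg over all isoforms), and at 2 to 3 h it was not (0.39, adjusted p = 0.285). The call at 0 to 1 h was lost without wild-type library 1 (0.65, adjusted p = 0.127) or 2 (0.82, adjusted p = 0.117) and without nos- library 2 (0.73, adjusted p = 0.134) or 3 (0.72, adjusted p = 0.128). The longer His3.3A-RC made up 12, 15.5 and 18.2% of *His3.3A* in wild type and 20.5, 23.4 and 19.2% in nos- at 2 to 3 h, a difference without overlap that its fitted level did not pass (0.21, adjusted p = 0.623). These shares are RSEM's division of reads that several isoforms can give.

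Of the 15 member isoforms, 2 were called between nos- and wild type at 0 to 1 h (His3.3B-RE and His4r-RD), beside 12.1% of all 15528 isoforms tested, and 2 at 2 to 3 h (BigH1-RA and His4r-RD), beside 17.4%. Between the stages 10 isoforms were called higher in wild type, where 27.1% of all were, and 8 in nos-, where 13.7% were. The effect of nos- differed between the stages for 3 isoforms (BigH1-RA, His2Av-RA and His3.3A-RD), beside 9.89% of all. Depending on the library left out, the count was 0 to 2 at 0 to 1 h and 0 to 5 for the difference between the stages.

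**Figure D4:**
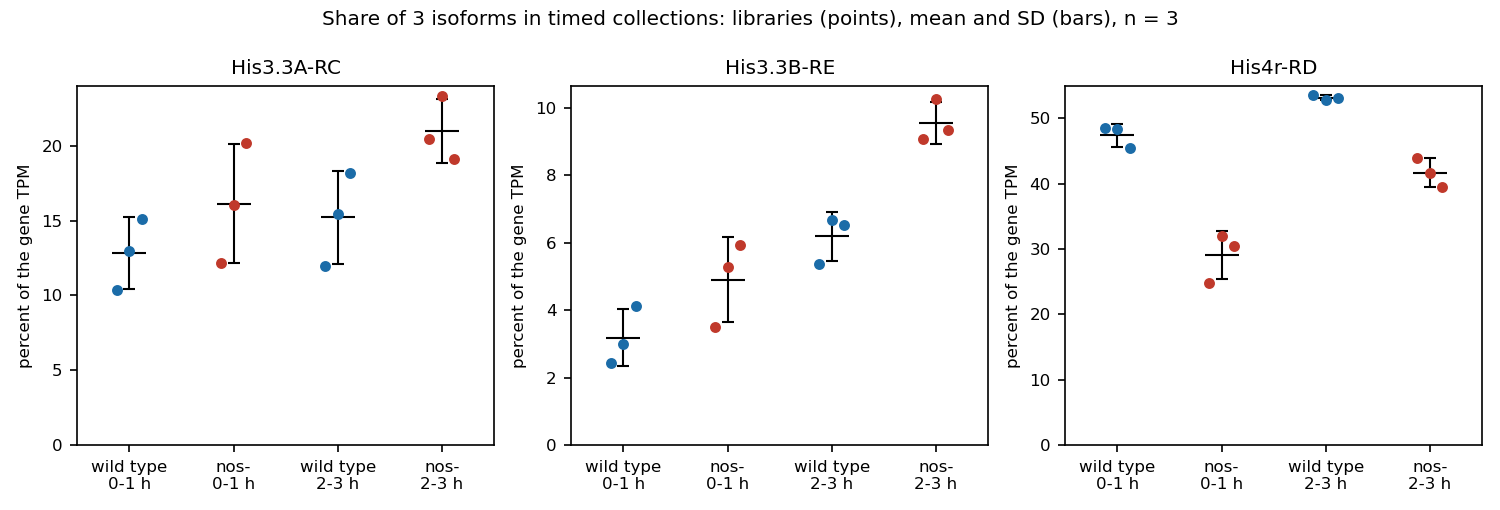
Share of His3.3A-RC, His3.3B-RE and His4r-RD in the TPM of their genes in timed collections, with each library as a point, wild type blue and nos- red, and bars for the mean and SD of 3 libraries. His4r-RD is lower in every nos- library (24.9 to 43.9%) than in any of wild type (45.4 to 53.5%).

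The proteins that store, place or process histones were read beside the members, from 4 lists of genes. Of 12 genes for H3-H4 chaperones and H3.3 deposition, 5 were called lower in Upf1-Nos against wild type and 0 higher (median −0.35 on the log2 scale, where all genes had −0.51), beside 39.7% of all genes called lower, a like share. Among the 5 were *Hira* (−2.98) and *yem* (−2.64), whose products place H3.3 in paternal chromatin at fertilization, *Ssrp* (−4.00), a subunit of the FACT complex, and *Caf1-105* (−3.56) of chromatin assembly factor 1. *Hira* itself held 26.2, 30.1 and 37.5 TPM in wild type and 5.74, 3.31 and 5.76 TPM in Upf1-Nos. Neither H3.3 gene was called beside these falls.

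Of 16 genes for exchange and storage of H2A.V, 2 were called lower and 0 higher (median −0.07), a smaller share than the 39.7% of all genes called lower. These were *Jabba* (−4.68), which anchors H2A.V and other histones to lipid droplets, and *Ing3* (−2.11) of the Tip60 complex. *dom*, the ATPase that exchanges H2A.V into nucleosomes, was at 15.7, 29.5 and 62.7 TPM in wild type and 80.2, 38.2 and 71.5 TPM in Upf1-Nos, a wide spread that did not pass the test (0.59). *Jabba* went from 869.5, 1015 and 871 TPM to 51.6, 33.5 and 50.4 TPM, without overlap.

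Of 10 genes listed under processing of histone pre-mRNA, 6 were called lower and 0 higher (median −1.19), where 39.7% of all genes were called lower. The nuclease gene *Cpsf73* (−4.21), *mute* (−3.95) and *mxc* (−1.60) of the histone locus body and *Sym* (−2.88), the symplekin scaffold, were among them, and *Lsm11* of the U7 particle was not (0.16). Against Upf1-NosL7, 4 of these 10 were called lower and 0 higher (median −0.74), beside 37.8% of all genes called lower. Mean *mxc* was 20.5 TPM in wild type, 8.24 TPM in Upf1-Nos and 8.67 TPM in Upf1-NosL7. Among 11 tested genes for other embryonic and centromeric chromatin proteins, 5 were called lower and 0 higher (median −0.42), near the share of all genes. The largest fall was that of *cid* (−5.93), the centromeric H3 variant, followed by *dhd* (−4.92), a thioredoxin that helps to remove sperm protamines, and *p32* (−4.57), a histone chaperone, and *cal1* (−1.55), which loads *cid*, was also called. *cid* held 47.0, 66.1 and 40.7 TPM in wild type and 1.78, 0.48 and 0.95 TPM in Upf1-Nos. The groups lay far apart.

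In nos- embryos at 2 to 3 h, the called genes of the 4 lists were all higher. They were 5 of 12, 2 of 16, 1 of 10 and 2 of 12, in the same order of lists. Of all genes, 18.6% were called higher and 8.80% lower. The share called higher thus lay above that of all genes in the first list and below it in the others. The list medians were −0.24, −0.09, 0.20 and −0.10, beside 0.01 for all genes, so 3 of these medians lay below 0 while every call was higher. The called genes included *Jabba* (2.18), *yem* (1.36), *Hira* (1.13), *DLP* (1.05), a Daxx-like chaperone, *Nap1* (1.05), a chaperone of H2A and H2B, *mxc* (0.51), *dhd* (2.29) and *cal1* (0.73), as *BigH1* was (0.89). *Jabba* held 39.8, 25.6 and 17.3 TPM in wild type and 179.7, 147 and 82.0 TPM in nos-, again in the order of the maternal markers of the same libraries.

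**Figure D5:**
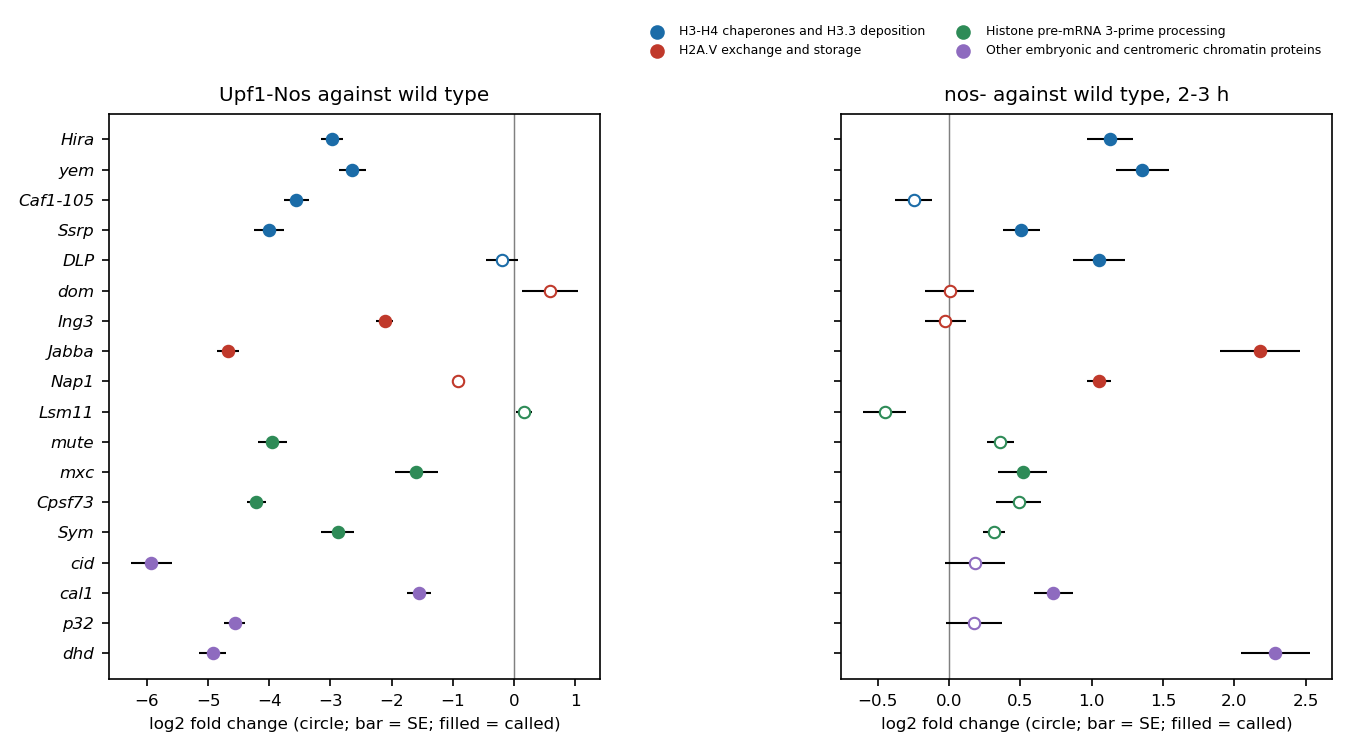
Fitted log2 changes (circles, bars of 1 SE, filled where called) of 18 named genes for histone storage, deposition and processing, coloured by list, in Upf1-Nos against wild type (left) and nos- against wild type at 2 to 3 h (right); the scales differ. *cid* lies lowest on the left, at −5.93, and *dhd* (2.29) and *Jabba* (2.18) highest on the right.

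Patterns were compared across the 9 group means of log2(TPM + 1), which cover genotypes as well as stages and so do not measure change with time. The replacement histones correlated positively with each other and negatively with *BigH1* and *Slbp*. Pearson's r was 0.95 between *His2Av* and *His3.3B*, 0.86 between *His2Av* and *His3.3A*, and 0.84 between *His3.3B* and *His4r*. It was −0.76 between *BigH1* and *His2Av* and only 0.44 between *BigH1* and *Slbp*. Weaker pairs were *His3.3A* and *His4r* (0.56), *BigH1* and *His4r* (−0.35) and *His3.3A* and *Slbp* (−0.21). Among 6145 genes with a mean of at least 10 TPM, the 3 most like *BigH1* were *nmdyn-D6*, *zpg* and *Pfdn4* (r = 0.99), and the 3 most like *Slbp* were *CG32100*, *bcd* and *CG8281* (r = 0.99). For *His2Av* they were *Spase25*, *Bub3* and *CG7483* (r = 0.98 to 0.99), for *His3.3A* *CG5013*, *Ddrgk1* and *U2af50* (r = 0.92 to 0.96), for *His3.3B* *CG15432*, *CG10907* and *sqh* (r = 0.98 to 0.99) and for *His4r* *mip40*, *Fkbp12* and *SkpA* (r = 0.97 to 0.98). These correlations describe 9 means that share libraries and scaling, and carry no test.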

How the data were processed

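The authors trimmed paired-end reads, removed short reads and those from mitochondrial RNA, tRNA and rRNA, mapped the rest with STAR 2.5.3a and quantified them with RSEM 1.3.0. The deposited files hold expected counts, which the authors left unnormalized, and TPM values, as RSEM gave the authors, for genes and isoforms. Identifiers are those of BDGP6.22; coordinates and UTR lengths come from BDGP6.54. The authors used edgeR 3.40.2 in R 4.2.1; their own comparisons were not used here.

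After rounding of the expected counts, low genes were removed with filterByExpr (count and total minimum of 30). The 15 sorted and the 12 timed libraries were each fitted in 1 model with group as the only term, with the quasi-likelihood test of edgeR 4.0.16 (form before edgeR 4, prior count 0.125) in R 4.3.3, and Benjamini-Hochberg adjustment over all genes (6857 and 8445) or isoforms (12840 and 15528) tested. Library sizes were scaled by TMM. In Upf1-Nos libraries the factors were replaced, as in the study, by the mean ratio of 20 abundant housekeeping genes to wild type (1.26, 1.47 and 1.33, where TMM gave 0.933, 0.869 and 0.924); no member is among the 20. Isoform fits kept the correction of the gene fit. Errors of log2 changes are |log2 change| divided by the square root of F. Calls ask for an adjusted p below 0.05 and a fold above 2 (sorted) or a log2 change beyond 0.5 (timed). Shares of *His3.3A* were compared by exact permutation. On simulated counts with a fixed spread, only the fits of Upf1 and of nos- at 2 to 3 h against wild type were tried. The correction for Upf1-Nos libraries was not covered.

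The members and the gene lists were chosen with earlier results of these data known. Named besides the members are, in each list, the 3 called genes with the largest change each way in Upf1-Nos and in nos- at 2 to 3 h, genes whose role bears on a member (*Jabba*, *Hira*, *dom*, *Lsm11* and *cid*), the 3 genes most like each member, and *nos* and *Upf1*. 3 symbols of the lists had been renamed and were matched by identifier. The labels do not say whether replicate numbers pair libraries. Between nos- and wild type, residuals of equal numbers correlated at 0.151 to 0.488 at 0 to 1 h and at 0.117 to 0.482 at 2 to 3 h. Library 1 of nos- at 0 to 1 h correlated more with a wild-type library of another number (0.312). In other comparisons some correlations were under 0.1. Alternatives covered the scaling, the test (DESeq2 1.42.0; limma 3.58.1 on log2(TPM + 1) and log2(TPM + 0.1)), the filter, the minimum fold, the groups fitted, a replicate block and each library left out. Sequences were not used here, so the planned description of 3′ UTR motifs and proteins was not made.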

Additional observations from a re-analysis of the deposited data

Results flagged for a closer look

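The effect of nos- differed between 2 to 3 h and 0 to 1 h, by the test of the difference itself (edgeR's quasi-likelihood test with Benjamini-Hochberg adjustment, n = 3 libraries per group), in 3 members. The log2 differences, 2 to 3 h minus 0 to 1 h, were 0.81 for *BigH1*, −0.53 for *His2Av* and −0.57 for *His3.3A*. For isoforms, which are no further results beside their genes, they were 0.83 for BigH1-RA, the only isoform of *BigH1*, −0.50 for His2Av-RA and −0.59 for His3.3A-RD.

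Among the genes for histone storage, deposition and processing that the text names, 8 differed in the same way. The log2 differences were 2.37 for *dhd*, 2.06 for *Jabba*, 1.39 for *yem*, 1.13 for *Hira*, 1.05 for *DLP*, 0.88 for *cal1*, 0.77 for *Nap1* and 0.61 for *mute*. These genes had been named for calls in other comparisons or for their role; over the 4 whole lists, genes were called in both directions, with 3 lower and 4 higher of 12 in the list of H3-H4 chaperones, 4 lower and 2 higher of 16 in that of H2A.V, 1 lower and 2 higher of 10 in that of pre-mRNA processing and 6 lower and 2 higher of 12 in that of other chromatin proteins, beside 10.1% of all genes called lower and 12.4% higher. All groups hold 3 libraries, too few to ask whether a single library stands apart.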

How the results depend on the processing

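No value changed direction past a threshold. In Upf1-Nos, 1 member (*Slbp*) instead of 2 was called against wild type and against Upf1-NosL7 without the correction factor, which shifts every gene alike. With no minimum fold, 1 member was called in Nos, 2 in nos- at 0 to 1 h and 4 in nos- at 2 to 3 h, by construction. In nos- at 2 to 3 h, 1 member (*BigH1*) was called instead of 2 with median-of-ratios scaling, DESeq2, no filter, the default filter, log2(TPM + 1), log2(TPM + 0.1), log2(TPM + 1) without a filter, and only the 2 groups in the fit; the cause was not tested. For the difference between the stages, 1 member (*BigH1*) was called instead of 3 with median-of-ratios scaling, DESeq2 and the 3 TPM settings; the cause was not tested. Between the stages in nos-, 6 members were called, 5 with median-of-ratios scaling, DESeq2 and the default filter, and 4 with no filter and the 3 TPM settings. With single libraries left out, members called ranged over 1 to 2 in nos- at 2 to 3 h, 5 to 6 between the stages in wild type, 4 to 6 between the stages in nos- and 1 to 5 for the difference between the stages, and isoforms over 0 to 1 in Nos, 0 to 2 in nos- at 0 to 1 h, 6 to 9 between the stages in nos- and 0 to 5 for the difference between the stages. BigH1-RA kept its call for that difference in 3 of 12 cases. A fit with the replicate number as a block, for which the correlations between nos- and wild type are given above, changed no count of members called (2 in nos- at 2 to 3 h, 3 for the difference between the stages). Whether depth limits these calls was not tested.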
